A study of Mus musculus with 21 samples.

Results

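The matrix metalloproteases (MMPs), the ADAM, ADAMTS and ADAMTS-like genes and the tissue inhibitors of metalloproteases (TIMPs) were followed through mouse mammary tumors with and without a *RhoC* transgene. Members were taken by name: every gene called Mmp, Adam, Adamts, Adamtsl or Timp, then a number and at most 1 letter, in the authors' deposited gene table. The rule found 66 of the 23203 genes of that table, which are 21 *Mmp*, 17 *Adam*, 19 *Adamts*, 5 *Adamtsl* and 4 *Timp* genes. A filter on low counts kept 61 of them for testing. *Mmp1a*, *Mmp1b*, *Adamts13*, *Adamts19* and *Timp4* did not pass it and are described by their levels. A further 18 listed genes of these families, most of them reproductive tract ADAMs, are not in the deposited table and were not analysed here.

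MMPs are secreted or membrane-anchored zinc proteases that cleave collagens, other matrix proteins and many signaling proteins, and in mammary tumors they come from carcinoma cells as well as from fibroblasts, macrophages and neutrophils. ADAMs release growth factors, cytokines and adhesion proteins from the cell surface, ADAMTS proteases cut proteoglycans and procollagens, and ADAMTS-like proteins resemble them without having a protease domain. TIMPs bind the active sites of these proteases and block them.

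Bulk RNA sequencing of 21 tumors was analysed, with 9 control tumors (N) from 9 mice and 12 RhoC tumors (R) from up to 8 mice. All mice carried FloxNeoNeuNT, an activated *Neu* cDNA placed behind a loxP-stop-loxP block at the *Erbb2* locus, together with MMTV-CreNLST, which directs Cre to the mammary epithelium. RhoC mice also carried R26(RhoC/+), a Cre-dependent *RhoC*-IRES-eGFP transgene at *Rosa26*. Of the controls, 7 carried Gata4(loxP/+), so that Cre deletes 1 copy of *Gata4*, and 2 did not. Ages are not given in the labels, but the paper reports that mammary tumors formed at a much younger age in RhoC mice than in controls. Transgene and age therefore cannot be told apart in the cohort comparison. Mouse P497 gave 4 of the RhoC tumors (R-13 to R-16) and mouse N9255 gave 2 (R-6 and R-7), and the label of R-18 names no mouse, so R-18 was taken as a mouse of its own. The label of R-21 names the mouse that the study's tumor list gives for another tumor, so its histology was left as not given. P-values treat every tumor as independent and measure the spread between these tumors. In bulk tumors, fewer cells of a type and less RNA per cell cannot be told apart.

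Total counts per tumor were 47309780 to 100741339. The transgene was not visible as a difference in *Rhoc* level: the 12 RhoC tumors had 22.8 to 148 CPM (counts scaled to library size by TMM), with a median of 88.2, and the 9 controls had 25.98 to 172, with a median of 50.7 (log2 fold change 0.19, adjusted p = 0.774). Luminal epithelial markers (10 genes, such as *Krt8* and *Epcam*) summed to 1640 to 6479 CPM in controls and to 707 to 3486 CPM in RhoC tumors, so mammary epithelium was present in every tumor. Histology was taken from the study's list of tumors and not from the sample labels, and it was used for description alone. Squamous cell carcinoma was given for 3 tumors, all RhoC (R-6, R-13 and R-14). Complex adenocarcinoma was given for 4 RhoC tumors and 1 control, poorly differentiated adenocarcinoma for 4 controls, solid nodular carcinoma for 1 RhoC tumor and 2 controls, and spindle cell tumor for 1 control.

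Most of the families were expressed. Per length, in the authors' FPKM, 44 of the 66 members had a mean over 1 across the 21 tumors, 17 had a mean over 10 and 5 had a mean under 0.1. *Adam10*, the sheddase that cuts Notch receptors and cadherins, had the highest mean level at 82.6 FPKM. It was followed by the collagenase *Mmp13* (65.4), the membrane collagenase *Mmp14* (53.1), the sheddase *Adam9* (38.6), the membrane protease *Mmp15* (38.3) and the inhibitor *Timp2* (37.6). These levels came about differently. *Adam10* lay between 52.4 and 164 FPKM in all 21 tumors, whereas *Mmp13* owed its mean to 4 tumors. Across tumors the median member had an SD of 1.23 on the log2 CPM scale, against 0.70 for the median of all tested genes.

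Between the cohorts, no member passed the test. In edgeR's quasi-likelihood test with Benjamini-Hochberg adjustment, 0 of 61 members had an adjusted p under 0.05, where 0.223% of all 19315 tested genes did (0.0932% higher and 0.129% lower). At an unadjusted p under 0.05 there were 13 members, 7 higher and 6 lower in RhoC tumors, a share close to the 20.5% of all tested genes (10.5% higher and 9.93% lower). The number of lower members rested on single tumors, at 2 without R-2, R-13, R-15 or R-18 and 3 without N-4, N-8, R-1, R-6, R-14 or R-21, while that of higher members was 5 to 10. With mouse as a random effect in limma voom there were 2 higher and 4 lower members. In that fit 13.01% of all tested genes had an unadjusted p under 0.05. The log2 fold change fitted in edgeR was above 0 for 42 members and below 0 for 19. Over all tested genes it was above 0 for 9577 and below 0 for 9738. Its median was 0.25 over the members and -0.01 over all tested genes. The members' median was 0.14 without N-9, 0.43 without N-17, 0.14 without mouse P497, 0.11 with counts summed over each mouse and 0.44 against the Gata4(loxP/+) controls alone. By family, 16 of 19 tested *Mmp* genes and all 5 *Adamtsl* genes had a higher fitted level in RhoC tumors, against 8 of 17 *Adam*, 11 of 17 *Adamts* and 2 of 3 *Timp* genes. In the higher direction, 5 *Mmp* genes and no *Adamtsl* gene had an unadjusted p under 0.05. DESeq2, run as an alternative, called 7 members (*Mmp13*, *Mmp10*, *Mmp9*, *Adam28* and *Mmp1a* higher, *Adam21* and *Adam32* lower), where 5.71% of the genes it gave an adjusted p were called (3.13% higher and 2.58% lower).

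**Figure D1:**
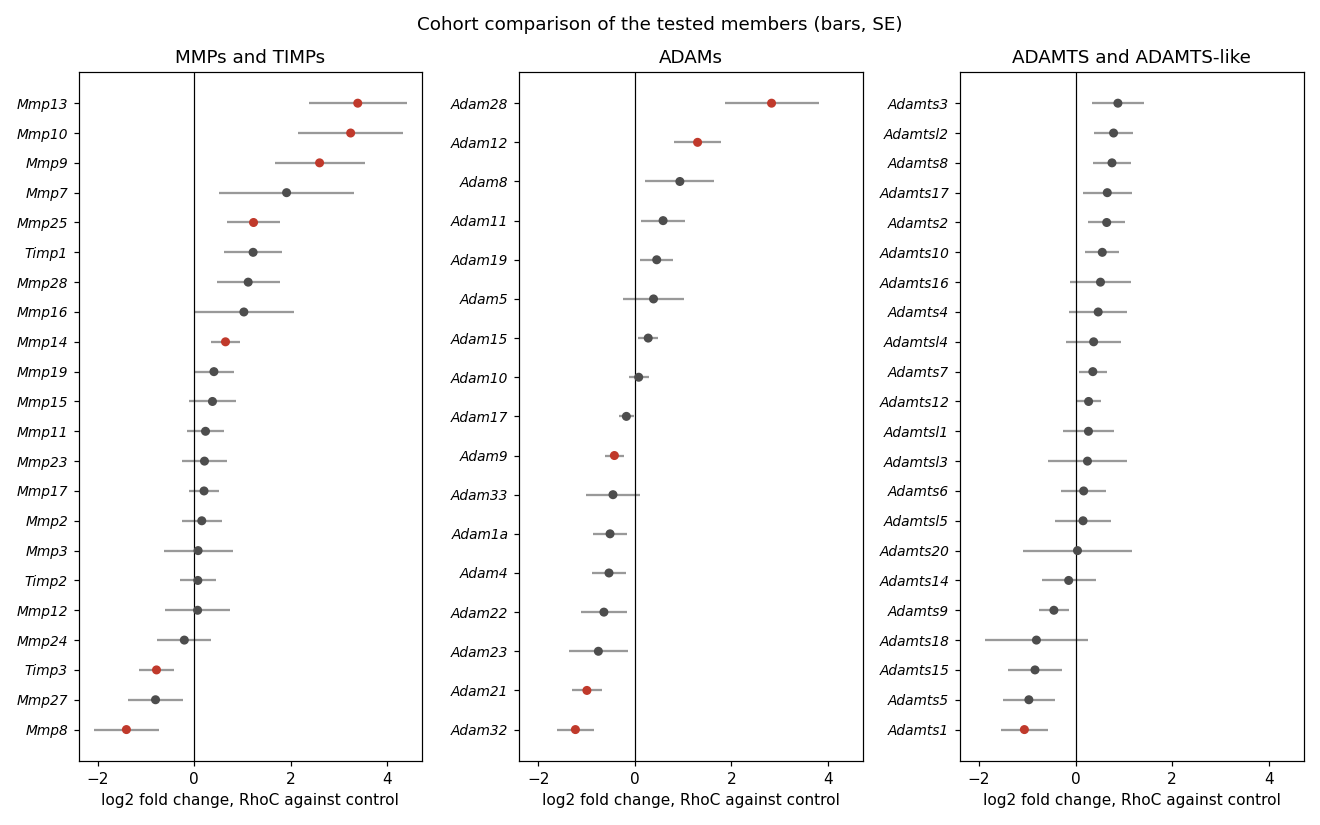
Fitted log2 fold change of each tested member, RhoC against control tumors (x axis, points with the SE as bars, 12 against 9 tumors), in 3 panels by family. Red marks an unadjusted edgeR p under 0.05 and no gene passed the adjusted threshold. *Mmp13*, *Mmp10*, *Adam28* and *Mmp9* lie farthest to the right at 2.596 to 3.39, and *Mmp8* farthest to the left at -1.40.

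The collagenases cut fibrillar collagen, and *Mmp13* (collagenase 3) had the smallest adjusted p of all members. The 9 controls ran from 2.15 CPM in N-17 to 97.7 CPM in N-6, with a median of 17.3. The 12 RhoC tumors ran from 3.998 CPM in R-1 to 934 CPM in R-13, with a median of 45.7. R-6 (782 CPM), R-13 (934), R-14 (617) and R-15 (858) stood above every other tumor, and the remaining 8 RhoC tumors, at up to 69.0 CPM, lay within the range of the controls. The means were 285 ± 386 CPM (SD, n = 12) and 27.3 ± 28.4 CPM (n = 9), a log2 fold change of 3.39 ± 1.01 (SE) with an adjusted p of 0.0955. Of these 4 tumors, 3 are the squamous cell carcinomas and R-15 was listed as solid nodular or poorly differentiated.

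*Mmp1a* and *Mmp1b*, the mouse counterparts of interstitial collagenase, were at or near 0 in all controls, with at most 0.0291 CPM for *Mmp1a* and 0.0726 CPM for *Mmp1b*. *Mmp1a* reached 12.04 CPM in R-6, 2.95 CPM in R-13 and 1.20 CPM in R-21. *Mmp1b* reached 5.44 CPM in R-6, 5.47 CPM in R-13 and 1.66 CPM in R-14. Both genes were thus detected at over 1 CPM in R-6 and R-13. They are paralogs, so their levels may be affected by shared reads, which was not tested. *Mmp8*, the collagenase of neutrophils, had a lower fitted level in RhoC tumors. It ran from 0.625 to 19.0 CPM in controls (median 3.12, highest in N-8) and from 0.208 to 10.1 CPM in RhoC tumors (median 0.973, highest in R-6). Its log2 fold change of -1.40 ± 0.67 did not pass the test (adjusted p = 0.238), and the cohorts overlapped. It was -0.68 without N-8 and -2.24 without R-6.

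*Mmp13*, *Mmp12*, *Mmp1b*, *Mmp3*, *Mmp1a*, *Mmp10*, *Mmp8*, *Mmp27* and *Mmp7* lie in 1 run of 427.1 kb on chromosome 9. Fitted log2 fold changes within the run were 3.39 for *Mmp13* and 3.24 for *Mmp10*, but 0.07 for *Mmp12*, 0.08 for *Mmp3*, 1.91 for *Mmp7* (-1.85 without R-2), -1.40 for *Mmp8* and -0.80 for *Mmp27*. Promoters of these genes are shown because several hold the AP-1 recognition sequence, long known from collagenase and stromelysin promoters. RefSeq windows of 250 bases before to 50 bases after the start were found for 43 of the 66 members (48 windows). They were searched on both strands for TGAGTCA, which also finds its reverse complement TGACTCA. The run held it in 7 of 11 windows (63.6%), all members, the run included, in 8 of 48 (16.7%), and all RefSeq windows in 5.20%. The only member window outside the run that held it was that of *Adam19*. Windows of *Mmp8* and *Mmp27* did not hold these letters. The 100 bases before the start follow for 5 genes of the run, 5′ to 3′ on the plus strand of GRCm38.p6, with the match in capitals.
Mmp13, chr9:7272414-7272513: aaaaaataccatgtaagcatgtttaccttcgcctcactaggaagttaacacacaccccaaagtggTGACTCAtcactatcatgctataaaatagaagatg
Mmp3, chr9:7445722-7445821: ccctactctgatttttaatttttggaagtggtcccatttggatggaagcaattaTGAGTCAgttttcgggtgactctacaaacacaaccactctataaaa
Mmp1a, chr9:7464041-7464140: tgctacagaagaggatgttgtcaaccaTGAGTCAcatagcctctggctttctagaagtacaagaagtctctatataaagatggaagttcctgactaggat
Mmp10, chr9:7502242-7502341: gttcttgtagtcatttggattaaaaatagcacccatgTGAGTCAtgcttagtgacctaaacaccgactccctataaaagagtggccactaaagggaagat
Mmp7, chr9:7691990-7692089: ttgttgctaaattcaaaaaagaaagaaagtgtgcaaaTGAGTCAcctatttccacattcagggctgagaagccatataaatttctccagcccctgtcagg
The match starts 35 bases before the start in *Mmp13*, 46 in *Mmp3*, 73 in *Mmp1a*, and 63 in both *Mmp10* and *Mmp7*. *Mmp7* was at 0 to 1.87 CPM in 11 of the 12 RhoC tumors. Whether the match has a part in the levels was not tested.

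Stromelysins 1 and 2 degrade proteoglycans, laminin and fibronectin and can activate other MMPs. *Mmp10* (stromelysin 2) had 0.116 to 5.07 CPM in controls, with a median of 2.96. In RhoC tumors it had 0.193 to 127 CPM, with a median of 4.72. R-13 (127 CPM), R-6 (85.9), R-14 (41.0) and R-15 (31.1) were again the 4 highest tumors. The log2 fold change was 3.24 ± 1.09 with an adjusted p of 0.124. *Mmp3* (stromelysin 1) had 1.72 to 111 CPM in controls (median 17.02, highest in N-17) and 0.975 to 72.5 CPM in RhoC tumors (median 22.7), with a log2 fold change of 0.08 ± 0.71. R-6, R-13 and R-14 had 62.1 to 72.5 CPM of *Mmp3*, above 17 of the 18 other tumors. *Mmp11* (stromelysin 3, usually made by stromal fibroblasts) had a log2 fold change of 0.23 ± 0.38.

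Gelatinases digest denatured collagen and the collagen of basement membranes. *Mmp9* (gelatinase B) had 10.4 to 59.8 CPM in controls, with a median of 16.8, and 0.606 to 793 CPM in RhoC tumors, with a median of 32.1. R-13 (793 CPM), R-6 (354) and R-14 (233) were above all others, and R-21 was the lowest of all 21 tumors. The log2 fold change was 2.596 ± 0.93 with an adjusted p of 0.140. *Mmp2* (gelatinase A) differed little between the cohort means, with 93.9 ± 48.1 CPM for RhoC and 84.2 ± 63.2 CPM for control tumors, a log2 fold change of 0.16 ± 0.41.

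**Figure D2:**
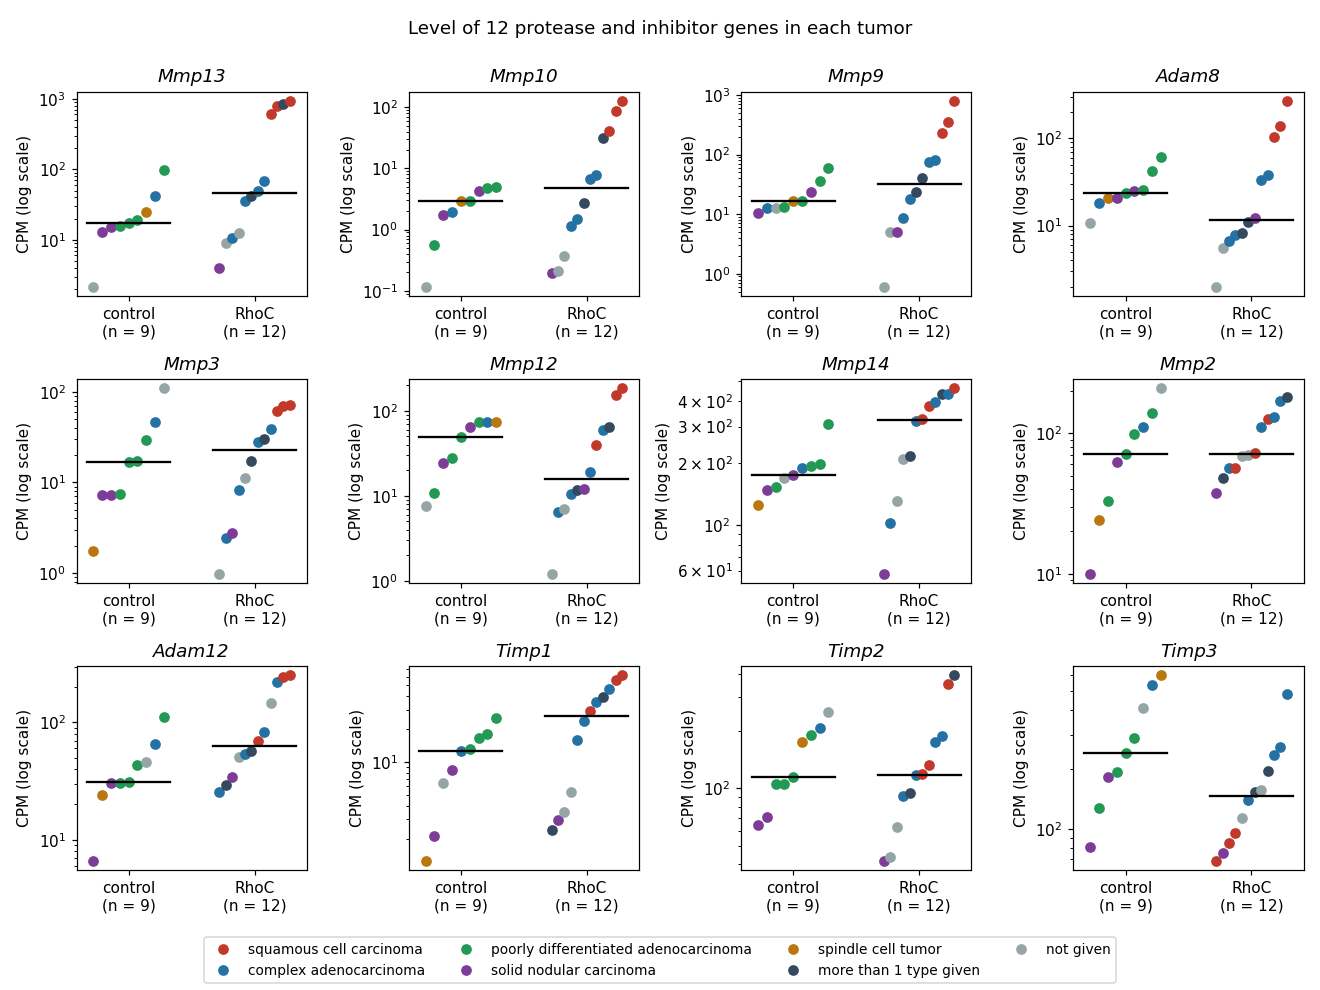
Level of 12 members in each tumor, as TMM-normalized CPM on a log axis, with control tumors on the left and RhoC tumors on the right of each panel. Each point is 1 tumor, colored by histology, and the line is the cohort median. The 3 squamous cell carcinomas are the highest 3 tumors for *Mmp10*, *Mmp9* and *Adam8*, and for *Mmp13* they stand with 1 further RhoC tumor at 617 to 934 CPM.

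The highest values of *Mmp10* and *Mmp9* and 3 of the 4 highest of *Mmp13* were in the squamous cell carcinomas. Set against the 4 complex adenocarcinomas of the RhoC cohort, the 3 squamous cell carcinomas were all higher for 8 of 61 members (*Mmp3*, *Mmp9*, *Mmp10*, *Mmp11*, *Mmp13*, *Adam8*, *Adamtsl4* and *Adamtsl5*), where 8.44% of all tested genes were. They were all lower for 12 members (*Adam5*, *Adam23*, *Adamts5*, *Adamts7*, *Adamts9*, *Adamts10*, *Adamts15*, *Adamts17*, *Adamts18*, *Adamtsl1*, *Adamtsl3* and *Timp3*), where 8.82% of all tested genes were. Against all 18 other tumors, *Mmp9*, *Mmp10* and *Adam8* were higher in all 3 squamous cell carcinomas, and no member was lower in all 3 (2.2% and 1.46% of tested genes). No test was run on these counts, since the labels do not give histology and the 3 tumors come from 2 mice.

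*Adam8*, a leukocyte and tumor cell sheddase, had its 3 highest values there as well. It was at 103 CPM in R-14, 137 in R-6 and 268 in R-13, at 1.995 to 38.4 CPM in the other 9 RhoC tumors and at 10.7 to 60.9 CPM in controls. The median of the RhoC cohort (11.7 CPM) was below that of the controls (23.5 CPM), while its mean (52.8 ± 80.4 CPM) was above theirs (27.7 ± 15.1 CPM). Its log2 fold change was 0.93 ± 0.71 with all tumors and -0.99 without the squamous cell carcinomas. Leaving these 3 tumors out also took *Mmp13* from 3.39 to 2.15, *Mmp10* from 3.24 to 1.09, *Mmp9* from 2.596 to 0.33, *Mmp12* from 0.07 to -1.08 and *Mmp3* from 0.08 to -0.80.

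Differences of this kind were also found between tumors of the same animal. In mouse N9255, the squamous cell carcinoma R-6 exceeded the complex adenocarcinoma R-7 by 6.20 log2 units for *Mmp13*, 6.19 for *Mmp10*, 5.36 for *Mmp9* and 4.12 for *Adam8*. In mouse P497, the mean of R-13 and R-14 exceeded that of R-15 and R-16 by 2.11, 3.38, 3.996 and 4.27 log2 units for these genes. For *Mmp13* this rested on R-16 (35.8 CPM), since R-15 (858 CPM) lay between R-14 and R-13. *Mmp16*, a membrane-anchored MMP, was at 241 CPM in R-7 and at 1.26 CPM in R-6. With mouse as a random effect in limma voom, the cohort difference was 1.44 for *Mmp13*, 0.71 for *Mmp10* and 0.22 for *Mmp9*, with adjusted p values of 0.577, 0.836 and 0.947. With counts summed over each mouse in edgeR it was 2.34, 2.17 and 1.63, with adjusted p values of 0.302, 0.364 and 0.391.

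Markers of squamous keratinocytes (12 genes, among which *Krt6a*, *Krt16* and *Dsg3* gave most of the signal) summed to 14683 CPM in R-6, 5838 in R-13 and 2616 in R-14, and to 3.25 to 1780 CPM in the other 18 tumors. *Krt1* and *Krt10* did not share this, since both were highest in N-1 and *Krt10* was at 1.09 to 2.21 CPM in the squamous cell carcinomas against 285 CPM in N-1. Basal epithelial markers (10 genes, such as *Krt5* and *Krt14*) summed to 7971 to 22120 CPM in these 3 tumors and to 803 to 6869 CPM elsewhere. Not all genes of this list shared this. *Oxtr* was at 1.20 to 5.98 CPM in the squamous cell carcinomas (32.7 CPM in R-7) and *Myh11* at 2.42 to 5.99 CPM (118 CPM in R-2). *Cnn1* and *Acta2* were highest in R-12. R-15, high for *Mmp13* and *Mmp10*, had a squamous sum of 132 CPM and a basal sum of 2784 CPM. The neutrophil marker list is dominated by *Ltf*, lactoferrin, which mammary epithelium also makes and which alone had 5238 CPM in R-18. The other 11 neutrophil markers summed to 803 CPM in R-6, 135 in R-13 and 87.5 in R-14, and to 8.56 to 347 CPM in the other 18 tumors, where N-8 was the only tumor above R-13 or R-14. *S100a8* and *S100a9* gave most of the sum in R-6 (317 and 205 CPM) and R-13 (60.2 and 37.8 CPM). *Csf3r* (124 CPM) and *Cxcr2* (96.0 CPM) were also highest in R-6. *Ngp* and *Mpo* were at 0.0418 and 0.0836 CPM in R-13, against 72.6 and 32.8 CPM in N-8. Macrophage markers summed to 865 to 1130 CPM in the squamous cell carcinomas, inside the range of the controls (507 to 1847 CPM). Fibroblast markers summed to 5402 CPM in R-6, 13013 in R-13 and 3301 in R-14, and to 424 to 9982 CPM in the other 18 tumors, so that R-13 was the highest of all 21. Most of the R-13 sum came from *Col1a1* (5999 CPM) and *Col1a2* (3216 CPM). *Dcn* (10.7 CPM in R-13, 320 CPM in N-4), *Dpt* (0.439 CPM, 124 CPM in N-17) and *Col3a1* (1944 CPM, 3218 CPM in R-10) were not highest there. Osteoclast markers (8 genes) summed to 199, 615 and 211 CPM in these 3 tumors and to 68.0 to 383 CPM in controls, with the highest sum in R-1 (2945 CPM), where *Itgb3* alone had 2861 CPM. R-13 was the highest tumor for 5 of these 8 genes. Among them were *Acp5*, the tartrate-resistant acid phosphatase, at 356 CPM (147 CPM in the next tumor, R-6) and *Ctsk*, cathepsin K, at 147 CPM (36.7 CPM in the next, R-10). The other 3 were *Dcstamp* (18.8 CPM), *Ocstamp* (10.4 CPM) and *Oscar* (2.42 CPM). The part of these cell types in the protease levels was not tested.

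**Figure D3:**
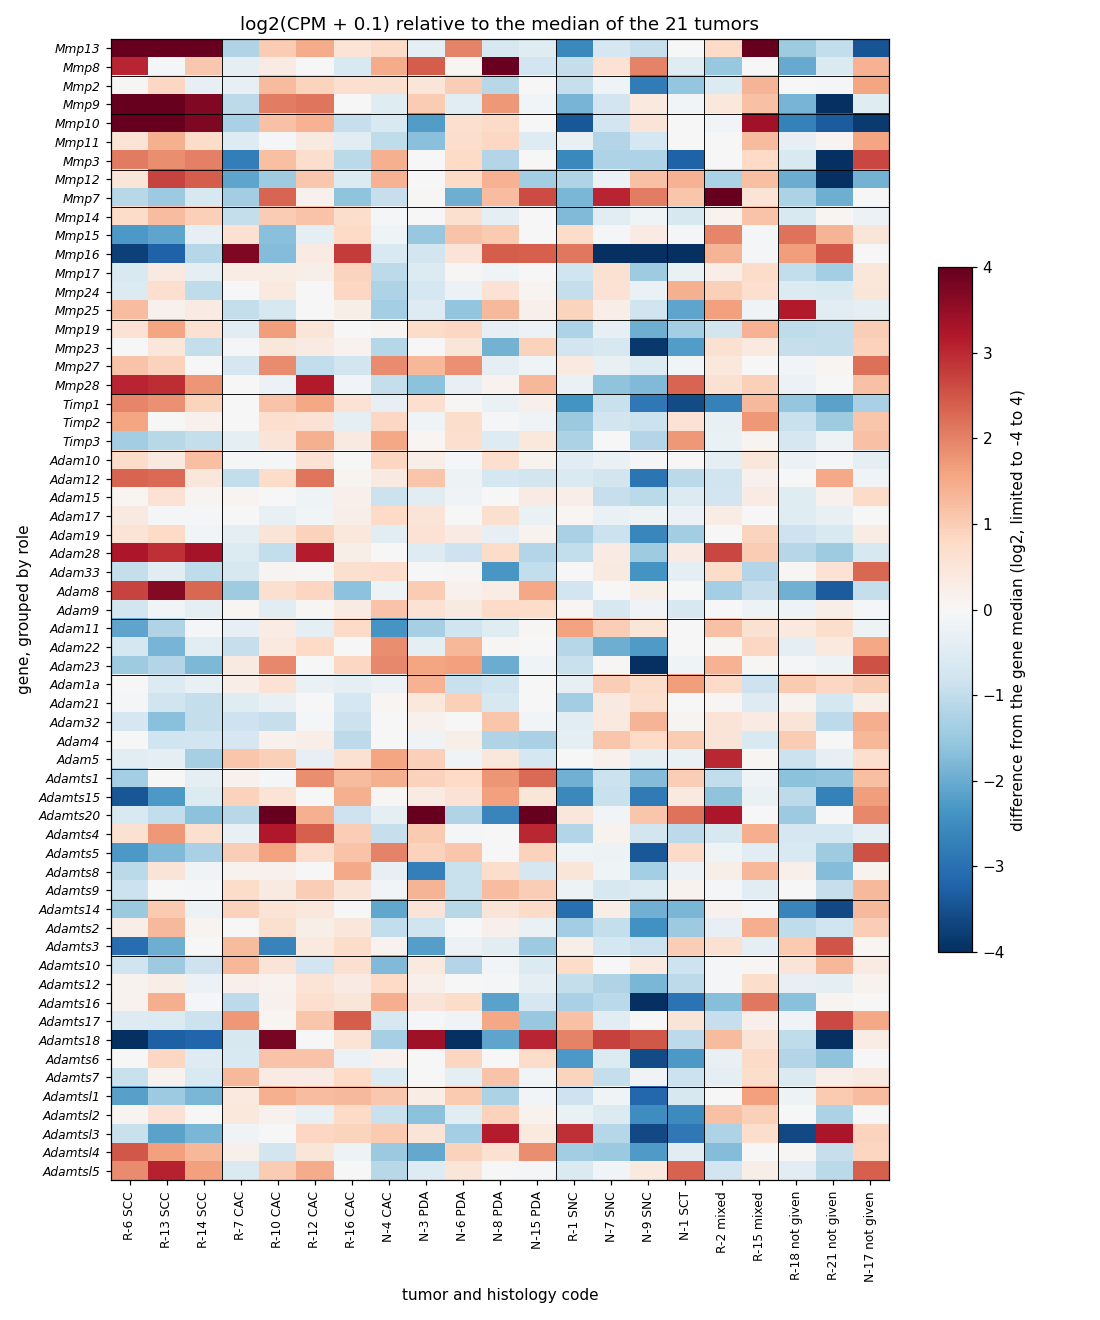
Tested members (rows, grouped by role) in the 21 tumors (columns, grouped by histology code), as log2(CPM + 0.1) minus the median of the gene, with red above and blue below the median. SCC is squamous cell carcinoma, CAC complex adenocarcinoma, PDA poorly differentiated adenocarcinoma, SNC solid nodular carcinoma and SCT spindle cell tumor. *Mmp13*, *Mmp9* and *Mmp10* are dark red in the squamous cell carcinomas, *Mmp13* and *Mmp10* also in R-15, and *Adamts18*, *Adamts15* and *Adamtsl1* are blue in the squamous cell carcinomas.

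Of the other secreted MMPs, *Mmp12* (macrophage elastase) had 7.60 to 74.5 CPM in controls (median 48.5) and 1.21 to 185 CPM in RhoC tumors (median 15.6), with 185 CPM in R-13 and 152 CPM in R-14. Its log2 fold change was 0.07 ± 0.68. *Mmp7* (matrilysin, an epithelial MMP) was at 43.2 CPM in R-2 and at no more than 3.13 CPM in any other tumor. Its log2 fold change was 1.91 ± 1.40 with R-2 and -1.85 without it. *Mmp28* (epilysin, known from keratinocytes) was above the control median of 2.04 CPM in 12 of 12 RhoC tumors, with 2.14 to 24.3 CPM in these and 0.691 to 13.5 CPM in controls (log2 fold change 1.12 ± 0.65, adjusted p = 0.332).

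Membrane-anchored MMPs act at the cell surface. *Mmp14*, which cleaves collagen and activates proMMP2, had 125 to 309 CPM in controls (median 174) and 57.9 to 461 CPM in RhoC tumors (median 322), and 9 of 12 RhoC tumors were above the control median. The log2 fold change was 0.65 ± 0.30 with an adjusted p of 0.230. *Mmp25*, a leukocyte MMP, differed by 1.23 ± 0.54 log2 units (adjusted p = 0.210), and R-18 was its highest tumor at 20.7 CPM. Without R-18 the difference was 0.65. *Mmp15* ranged from 28.1 CPM in R-6 to 619 CPM in R-18 within the RhoC cohort, and from 47.7 to 301 CPM in controls. *Mmp16* had the widest spread of the group, from 0.0677 to 97.5 CPM in controls and from 1.26 to 241 CPM in RhoC tumors.

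Among the TIMPs the fitted differences had both signs, and none passed the test. *Timp1*, the inducible inhibitor, had 1.25 to 25.4 CPM in controls (median 12.6) and 2.38 to 62.1 CPM in RhoC tumors (median 26.6). All 9 controls were below the median of the RhoC tumors, but 4 RhoC tumors were below the control median, and the log2 fold change of 1.22 ± 0.61 did not pass the test (adjusted p = 0.258). *Timp3*, which binds to the matrix and also inhibits ADAM17 and several ADAMTSs, had 80.4 to 600 CPM in controls (median 242) and 68.7 to 484 CPM in RhoC tumors (median 146), and 10 of 12 RhoC tumors were below the control median. Its log2 fold change was -0.78 ± 0.37 with an adjusted p of 0.238, and 21.3% of its exonic bases overlap exons of *Syn3* on the other strand. *Timp2*, which also takes part in the activation of proMMP2 by MMP14, had a log2 fold change of 0.07 ± 0.38. *Timp4* was at 8.56 CPM in N-17 and at no more than 0.353 CPM in the other 20 tumors.

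The sum of 15 MMPs was set against the sum of the 4 TIMPs in FPKM, a ratio of transcript levels that says nothing of protein or activity. The 15 are all MMPs outside the membrane-anchored list, are called secreted here, and include *Mmp23* (at most 5.53 FPKM). In controls the ratio ran from 0.419 in N-1 to 1.46 in N-9, with a median of 1.002. In RhoC tumors it ran from 0.555 in R-7 to 7.71 in R-13, with a median of 1.17. The squamous cell carcinomas had ratios of 3.27, 7.71 and 5.46 in R-6, R-13 and R-14. R-15 had 2.73, R-2 had 2.24, and the other 7 RhoC tumors, at 0.555 to 1.21, were inside the range of the controls. *Mmp13* alone made up 43.4% to 69.5% of the secreted MMP sum in R-6, R-13, R-14 and R-15. Summed membrane-anchored MMPs ran from 53.7 to 132 FPKM in controls and from 73.0 to 162 FPKM in RhoC tumors.

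**Figure D4:**
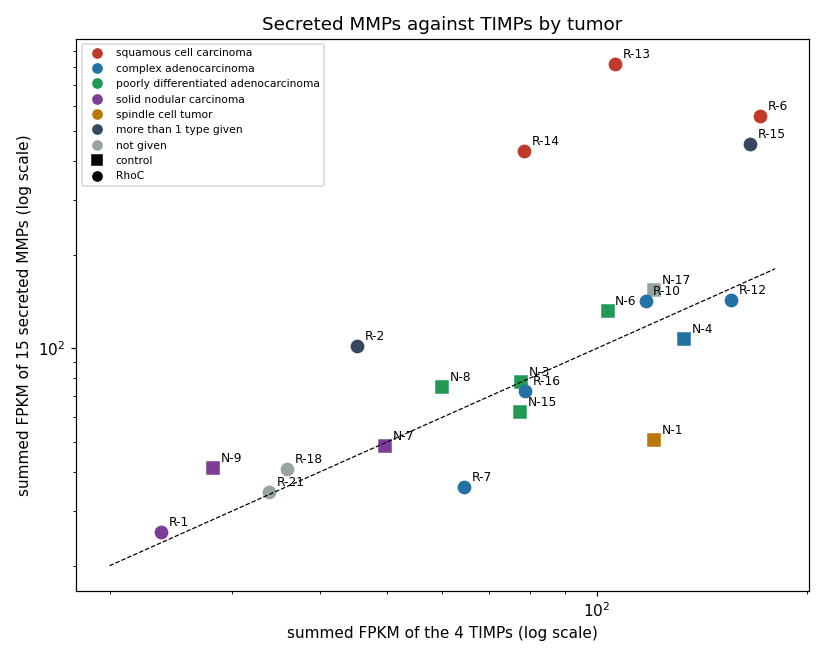
Summed FPKM of 15 secreted MMPs (y axis, log scale) against the summed FPKM of the 4 TIMPs (x axis, log scale), with 1 point per tumor, squares for controls, circles for RhoC tumors and colors for histology. On the dashed line both sums are equal. R-6, R-13, R-14 and R-15 lie well above it, at 429 to 819 FPKM of secreted MMPs.

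Among the ADAMs, the broadly expressed sheddases differed little between the cohort means. *Adam10* had a log2 fold change of 0.08 ± 0.21, and *Adam17*, which releases TNF and EGF receptor ligands, had one of -0.18 ± 0.15, with means of 128 ± 22.5 CPM and 145 ± 45.5 CPM in RhoC and control tumors. *Adam9* had 94.2 to 322 CPM in controls (median 187) and 89.2 to 185 CPM in RhoC tumors (median 142), so that every RhoC tumor was below the control median (log2 fold change -0.42 ± 0.20, adjusted p = 0.237). *Adam12*, known from carcinoma and activated stromal cells, had 6.59 to 111 CPM in controls (median 31.1) and 25.5 to 253 CPM in RhoC tumors (median 63.3). R-6 (253 CPM), R-13 (247) and R-12 (222) were its highest tumors, and the log2 fold change was 1.30 ± 0.49 with an adjusted p of 0.154.

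*Adam28* was low throughout. It had at most 0.347 CPM in controls, and it was at 1.59 to 2.62 CPM in R-2, R-6, R-12, R-13 and R-14 and at no more than 0.437 CPM in the other 7 RhoC tumors. The log2 fold change was 2.83 ± 0.97 with an adjusted p of 0.129, and it ran from 1.21 to 2.96 over the alternative settings. Reproductive tract ADAMs with traces of signal had a lower fitted level in RhoC tumors in 4 of 5 cases. *Adam32* had 0.313 to 1.12 CPM in controls and 0.0418 to 0.540 CPM in RhoC tumors (-1.23 ± 0.39, adjusted p = 0.110). *Adam21* had 0.127 to 0.581 CPM in controls and 0.0341 to 0.291 CPM in RhoC tumors (-0.99 ± 0.32, adjusted p = 0.111), and no RhoC tumor reached its control median of 0.320 CPM. The non-catalytic ADAMs of the group, *Adam11*, *Adam22* and *Adam23*, had log2 fold changes of 0.58, -0.64 and -0.76, and none had an unadjusted p under 0.05.

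The proteoglycan-cleaving ADAMTSs were split, with 3 of 7 higher and 4 lower in RhoC tumors by their fitted level. *Adamts1*, an aggrecanase and versicanase, had 19.5 to 312 CPM in controls (median 129) and 16.99 to 236 CPM in RhoC tumors (median 54.1), and its log2 fold change was -1.06 ± 0.48 with an adjusted p of 0.224. *Adamts5*, a major aggrecanase, had 2.32 to 147 CPM in controls (median 47.8) and 5.03 to 76.1 CPM in RhoC tumors (median 20.3), with a log2 fold change of -0.97 ± 0.53 (adjusted p = 0.308). *Adamts5* was low in the squamous cell carcinomas, at 5.03 to 10.1 CPM against 40.7 to 76.1 CPM in the complex adenocarcinomas of the same cohort. *Adamts15*, a further proteoglycan-cleaving member, was at 2.73 to 20.7 CPM against 30.4 to 82.1 CPM.

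Procollagen ADAMTSs trim the ends of fibrillar collagen precursors, and none of the 3 had an unadjusted p under 0.05. *Adamts2* had a log2 fold change of 0.65 ± 0.38, *Adamts3* of 0.88 ± 0.54 and *Adamts14* of -0.14 ± 0.56. *Adamts18* was among the most variable members. It ran from 0.0166 to 31.5 CPM in controls and from 0 in R-6 to 41.7 CPM in R-10, and it was at no more than 0.231 CPM in the squamous cell carcinomas. The ADAMTS-like genes had log2 fold changes of 0.16 to 0.79. *Adamtsl2*, which binds fibrillin microfibrils, was above its control median in 11 of 12 RhoC tumors (0.79 ± 0.41, adjusted p = 0.277). *Adamtsl3* reached 94.6 CPM in R-21 and 85.2 CPM at most in controls, and its log2 fold change of 0.25 ± 0.83 was -0.30 without R-21.

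Genes that act on these proteases were read from lists of activators, other inhibitors, ADAM cofactors and further matrix metalloproteases. Of 46 tested genes, none had an adjusted p under 0.05 in edgeR, while 10 were higher and 3 lower at an unadjusted p under 0.05, where 10.5% and 9.93% of all tested genes were. DESeq2, which took in 52 genes of these lists, called 4 (*Rhbdf2*, *Plau*, *Bmp1* and *Lrp1*), against 5.71% of all genes it gave an adjusted p. *Rhbdf2* (iRhom2, which carries ADAM17 to the cell surface) had the smallest adjusted p. It had 16.5 to 105 CPM in controls (median 58.7) and 68.5 to 423 CPM in RhoC tumors (median 117), and all 12 RhoC tumors were above the control median (1.39 ± 0.36, adjusted p = 0.0714). Of the other ADAM17 partners, *Frmd8* (0.58 ± 0.20, adjusted p = 0.124) and *Rhbdf1* (0.42 ± 0.17, adjusted p = 0.177) were also above the control median in 12 of 12 RhoC tumors, next to the near-level *Adam17*.

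*Plau*, the urokinase that generates plasmin and through it active MMPs, had 16.1 to 61.5 CPM in controls (median 37.4) and 13.7 to 1120 CPM in RhoC tumors (median 66.3). Its log2 fold change was 2.36 ± 0.70 (adjusted p = 0.0955). The squamous cell carcinomas R-13 (1120 CPM), R-14 (442) and R-6 (273) were its highest tumors. *Bmp1*, a procollagen C-proteinase, differed by 1.23 ± 0.40 log2 units (adjusted p = 0.116), and *Lrp1*, a receptor that clears MMP and TIMP complexes, by 1.37 ± 0.47 (adjusted p = 0.128). *Lrp1* was also highest in the squamous cell carcinomas, at 3148 CPM in R-13, 1955 in R-6 and 1404 in R-14. *Pappa*, which cleaves IGF-binding proteins, was lower in 11 of 12 RhoC tumors than the control median of 27.0 CPM (-2.32 ± 0.68, adjusted p = 0.0918), and its highest control was the spindle cell tumor N-1 at 378 CPM.

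Members were next set against marker scores of cell types over 17 mice, with tumors of a mouse averaged. Of 22 relations computed, 11 had an adjusted p under 0.05 for Pearson's r (100000 permutations). Fibroblast markers went with *Mmp2* (r = 0.94, rho = 0.89, adjusted p = 0.00022 for each), and r was 0.89 without the 2 farthest mice, 0.97 in the 9 controls and 0.88 in the 8 RhoC mice. They also went with *Adamts2* (r = 0.79, rho = 0.74, adjusted permutation p = 0.00176 and 0.00676, and r = 0.62 without the 2 farthest mice). *Mmp3* followed them as well (r = 0.72, rho = 0.91, adjusted permutation p = 0.00506 and 0.00022, and r = 0.91 without the 2 farthest mice). For *Timp1*, *Timp2* and *Timp3* the fibroblast r was 0.68, 0.62 and 0.54 (rho 0.70, 0.66 and 0.56), with adjusted permutation p values of 0.00568, 0.0166 and 0.0494 (0.0104, 0.0173 and 0.0360 for rho) and r of 0.62, 0.62 and 0.44 without the 2 farthest mice. The relation of *Timp3* was lost with each tumor as 1 point (r = 0.42, adjusted permutation p = 0.0745) and with log2(FPKM + 0.1) (r = 0.54, adjusted permutation p = 0.0520), and was closer without the spindle cell tumor (r = 0.77, adjusted permutation p = 0.00165). *Mmp14* passed by rank but not by Pearson's r (r = 0.52, rho = 0.64, adjusted permutation p = 0.0592 and 0.0173), and its r was 0.60 without the 2 farthest mice, 0.36 in the controls and 0.82 in the RhoC mice. *Mmp13* and *Mmp11* gave r of 0.27 and 0.25, and neither passed.

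Neutrophil markers went with *Mmp8* (r = 0.79, rho = 0.81, adjusted permutation p = 0.00176 and 0.00117), and r was 0.78 without the 2 farthest mice, 0.84 in controls and 0.69 in RhoC mice. They went with *Mmp9* too (r = 0.74, rho = 0.64, adjusted permutation p = 0.00506 and 0.0173), and r was 0.56 without the 2 farthest mice, 0.81 in controls and 0.87 in RhoC mice. *Mmp9* also went with *Timp1* (r = 0.60, rho = 0.64, adjusted permutation p = 0.0225 and 0.0173), with r of 0.76 without the 2 farthest mice, 0.18 in controls and 0.79 in RhoC mice. *Mmp12* did not go with macrophage markers (r = -0.16, rho = -0.19, adjusted permutation p = 0.568 and 0.492). Endothelial markers and *Adam15* gave r = 0.53 and rho = 0.30 (adjusted permutation p = 0.0494 and 0.318), which rested on 2 mice, since r was 0.08 without them. Squamous marker scores fell into 2 separate clusters, so no pooled value is given for *Mmp10*: r was 0.52 in the 10 mice with low scores and -0.13 in the 7 with high scores. In these clusters *Mmp10* had 0.148 to 6.77 CPM and 1.75 to 22.4 CPM.

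**Figure D5:**
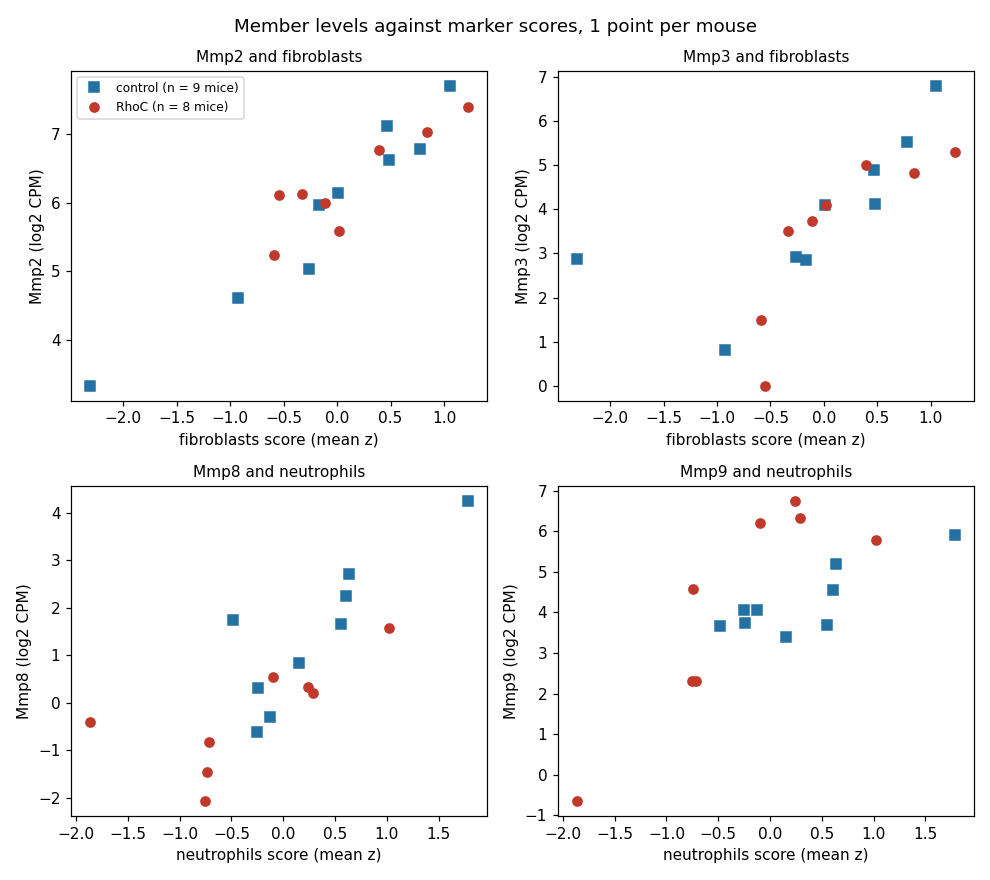
Level of *Mmp2*, *Mmp3*, *Mmp8* and *Mmp9* (y axes, log2 CPM) against the score of fibroblast or neutrophil markers (x axes, mean z score), with 1 point per mouse, squares for 9 controls and circles for 8 RhoC mice. *Mmp2* follows the fibroblast score with r = 0.94 over 17 mice and *Mmp8* the neutrophil score with r = 0.79.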

How the data were processed

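Whole-number read counts per gene were deposited for each tumor (9 control, 12 RhoC). Per the labels and the paper, the authors trimmed the reads (Trim Galore), mapped them (STAR) and used HTSeq to assign uniquely placed pairs to genes. The submitters' processing notes name FastQC 0.11.5, Trim Galore 0.5.0, STAR 2.6.0c, HTSeq 0.6.1p2 and the build GRCm38.p6. Whether strand was used in counting is not given in the sources used here. FPKM values were scaled by the authors and deposited in their comparison table, whose DESeq2 fold changes and p-values were not used. Tests were run on all 19315 genes that passed filterByExpr, of 49652, with edgeR 4.0.16 (TMM, quasi-likelihood, no covariates) in R 4.3.3. Alternatives used DESeq2 1.42.0 and limma 3.58.1. Members and gene lists were chosen with earlier results of these data known. Genes were named by highest mean FPKM, largest SD of log2 CPM, smallest p in each direction, the TIMPs and the members set against markers. *Adam11*, *Adam17*, *Adam22*, *Adam23*, *Adamts3*, *Adamts4*, *Adamts13*, *Adamts14*, *Adamts15*, *Adamts19*, *Adamts20*, *Adamtsl2*, *Mmp1a*, *Mmp1b*, *Mmp28*, the related genes given with values and the genes listed for squamous tumors or the chromosome 9 run were named after their values were seen. SE is the log2 fold change over the root of F. The fit was tested on simulated data. No 2 tumors held identical counts. Marker scores are mean z scores of log2 CPM (prior count 2). Exon overlap was computed from GENCODE vM21 and promoters were taken from RefSeq.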

Additional observations from a re-analysis of the deposited data

Results flagged for a closer look

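In 31 named genes the highest or lowest control tumor was compared with the other 8 on the log2 CPM scale, as the gap to its neighbor over the whole range. With 9 tumors a share above 0.493 was taken as far from the rest, and chance gives such a gap in about 1 of 20 groups. It was found for 4 genes. *Adamts5* was low in N-9 (2.32 CPM against 21.8 to 147 in the other controls, share 0.539). *Mmp14* was high in N-6 (309 CPM against 125 to 197, share 0.498). *Mmp15* was low in N-3 (47.7 CPM against 122 to 301, share 0.511). *Timp4* was high in N-17 (8.56 CPM against 0 to 0.299, share 0.582), a tumor that also had the highest skeletal muscle (6519 CPM) and adipocyte (742 CPM) marker sums of all 21 tumors. Their part in the *Timp4* level was not tested.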

How the results depend on the processing

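The count of called members was 0 in edgeR and limma under every setting run and 7 in DESeq2. At an unadjusted p under 0.05 it was 13 of 61 (20.5% of all tested genes), 20 of 66 with DESeq2 (14.6%), 6 of 61 with limma voom and mouse as a random effect (13.01%), 8 of 59 without the tumors of mouse P497 (11.6%) and 8 to 13 when 1 tumor was left out (17.5% to 23.2%), with 8 without N-4, R-13 or R-15. Called related genes numbered 4 with DESeq2, 1 with the Gata4(loxP/+) controls alone and 0 to 1 with 1 tumor left out (1 without N-15). Replicate numbers 1, 6, 7 and 15 occur in both cohorts and name different mice, and the correlations of their deviations (-0.24, -0.18, -0.0029 and 0.02) show no pairing. With a replicate block on these 8 tumors, 4 of 60 members had an unadjusted p under 0.05 (7.11% of all tested genes), and 6 of 60 without the block (11.2%), a setting chosen after the data had been seen. The median log2 fold change of the members was 0.13 with the block and 0.25 without it on these tumors. Under that block the log2 fold changes of *Adam8* (-0.73), *Mmp7* (-3.22), *Mmp12* (-0.76), *Mmp14* (-0.15), *Mmp15* (-0.36) and *Mmp8* (0.47) turned direction, and on the same 8 tumors without the block so did *Mmp7* (-3.33), *Mmp12* (-0.41), *Mmp15* (-0.26) and *Mmp8* (1.48).

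Named genes otherwise turned direction as follows, none of them called. Without the squamous cell carcinomas these were *Adam8* (-0.99), *Adam10* (-0.16), *Mmp3* (-0.80), *Mmp11* (-0.030), *Mmp12* (-1.08) and *Timp2* (-0.10). Without mouse P497 they were *Adam10* (-0.11), *Mmp2* (-0.044), *Mmp3* (-0.31), *Mmp11* (-0.13), *Mmp12* (-1.28) and *Timp2* (-0.092). With counts summed over each mouse they were *Adam10* (-0.12), *Mmp3* (-0.35), *Mmp11* (-0.033), *Mmp12* (-0.75) and *Timp2* (-0.19). Under limma voom they were *Adam8* (-0.62), *Adam10* (-0.020), *Mmp3* (-0.26), *Mmp7* (-1.42), *Mmp12* (-1.10) and *Timp2* (-0.22). Single cases were *Mmp7* in DESeq2 (-1.84), *Mmp12* against the Gata4(loxP/+) controls alone (-0.23), *Mmp3* without the spindle cell tumor (-0.080) and *Adam8* with macrophage markers over single tumors (r = -0.19). With 1 tumor left out, ranges that crossed 0 were -0.049 to 0.18 for *Adam10*, -0.30 to 1.18 for *Adamtsl3*, -0.37 to 0.19 for *Mmp12*, -0.00374 to 0.45 for *Mmp2*, -0.13 to 0.78 for *Mmp3*, -1.85 to 2.34 for *Mmp7* and -0.15 to 0.22 for *Timp2*. Causes were not tested. *Mmp13*, *Mmp10* and *Mmp9* kept their direction under every setting, at 1.26 to 3.39, 0.71 to 3.26 and 0.22 to 2.78 over the alternatives and at 3.05 to 3.94, 2.59 to 3.41 and 1.77 to 2.93 with 1 tumor left out (lowest without R-13 for all 3). Leaving out 1 tumor also moved *Adam8* to 0.26 (without R-13), *Adamts5* to -0.62 (N-17), *Adamts18* to -0.43 (N-3) or -1.83 (R-10), *Mmp11* to 0.085 (R-13) or 0.58 (N-17), *Mmp15* to 0.12 (R-18) and *Mmp16* to 0.55 (R-7). Depth limits what can be said of *Adam21*, *Adam28* and *Adam32*, which had few reads.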

Other observations

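Several extremes belonged to single tumors. N-17 was the highest tumor for 12 of 61 tested members, and it had the highest sums of skeletal muscle and adipocyte markers and a fibroblast sum of 8753 CPM. N-9 was the lowest tumor for 21 of 61, and its fibroblast sum, at 424 CPM, was the lowest of all 21 tumors. Whether these cell types account for the extremes was not tested. R-2 was highest for *Mmp7* (43.2 CPM), *Adam5* (2.26 CPM) and *Adamts13* (2.71 CPM). R-10 was highest for *Adamts4* (321 CPM), *Adamts18* (41.7 CPM), *Adamts19* (1.62 CPM) and *Adamts20* (32.6 CPM). R-21 had the highest *Adamts3* (145 CPM) and *Adamtsl3* (94.6 CPM) and the lowest *Mmp3* (0.975 CPM), *Mmp9* (0.606 CPM), *Mmp12* (1.21 CPM) and *Adam8* (1.995 CPM). Within the controls *Mmp3* and *Mmp10* had r = -0.59 over 9 mice, and within the RhoC cohort r = 0.84 over 8 mice. The difference between these was not tested, and the relation over all 17 mice was not called (r = 0.24, rho = 0.25, adjusted permutation p = 0.403 and 0.388).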
